A study of Mus musculus with 30 samples.

Results

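Windows of open chromatin that were lost within 4 h of CK666 in mouse mesenchymal stem cells (MSCs) were followed to the libraries taken at 24 h, to find which losses persisted and which returned. A window is a consensus region in which the authors counted ATAC-seq reads, and its level at 4 h is given in CPM, the count scaled by the total count of its library. A window was chosen by 2 limits, a lowest control level of at least 1 CPM among the 3 control MSC libraries at 4 h, and a highest level with CK666 below 0.7 times that lowest control level. Of the 369846 windows of the 4 h table, 122287 reached the control limit, and 1815 of these were selected on the 4 h values as lost. The 4 h MSC values therefore describe the 1815 windows and are not tested, while the libraries at 24 h and the NIH 3T3 libraries took no part in the choice.

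The MSCs were a primary line made from the marrow of several male C57BL/6J mice, so that libraries do not stand for single animals, and each group held 3 libraries: no treatment and CK666 at 4 h, and no treatment, CK666 and cytochalasin D (CytoD) at 24 h. The 4 h table also held NIH 3T3 cells, an established mouse embryonic fibroblast line, labelled with the same strain, with 3 untreated and 3 CK666 libraries at 4 h. The 4 h and the 24 h libraries each had their own controls and window calls. Time therefore cannot be told apart from other differences between these sets of libraries, and the same cultures were not followed over time. The labels of the 24 h libraries give no time, which was taken from the study's description. Nothing states that the libraries of a group came from separate cultures, so p-values measure the spread between these libraries, which may be technical. ATAC-seq marks open chromatin by a transposase that inserts adapters where DNA is accessible, so a count reports how often a region was cut over all cells of a library, and fewer cells with an open window and less opening per cell cannot be told apart. Total counts ranged from 29239381 to 34979833 in the MSC libraries at 4 h, from 14071301 to 22352180 at 24 h and from 14496058 to 27866363 in NIH 3T3. In control MSCs the windows at the starts of Pdgfrb, Pdgfra and Cxcl12, stromal markers, held 24.5, 17.99 and 20.8 CPM at 4 h, while that of Thy1 held 0.0228 CPM and no window contained the start of Eng or Nt5e. Of the endothelial markers, Cdh5 held 0.598 CPM and Kdr 2.67 CPM, Pecam1 had no window at its start, and none of the 4 haematopoietic markers had one.

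Actin filaments branch where the Arp2/3 complex binds the side of an existing filament, and CK666 blocks this complex. CytoD instead caps filament ends and stops their growth. Monomeric actin holds the coactivator MRTF away from serum response factor (SRF), which binds CArG boxes at genes of the contractile cytoskeleton, and tension on filaments keeps YAP and TAZ in the nucleus, where they work through TEAD factors at genes of growth, adhesion and matrix. Both routes make genes of actin, its binding proteins and matricellular proteins well-known readers of the state of the cytoskeleton.

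Stretches of 150 bases from 5 of the lost windows are shown first. They carry letters of the kinds counted across all windows below and come from windows that were persistent, returned or increased at 24 h. The counts below take only the central 300 bases of each window. The marked letters of the Thbs1, Ccn2 and Ssu2 stretches, and the first marked letters of Plk2, lie outside those bases and were not counted. They were read from the plus strand of GRCm38 (mm10) outside annotated exons, and capitals mark GGAATG (bound by TEAD factors), TGANTCA (bound by AP-1) and the CArG box (bound by SRF), on either strand. The class at 24 h, defined below, is in brackets. It belongs to the lost window, by way of the 24 h window it was followed to, and not to the stretch itself. The Thbs1 stretch lies outside that 24 h window (chr2:118127366-118130475). The Plk2 stretch lies only partly inside its own (chr13:110400318-110402625).
Lpp promoter (persistent), chr16:24447867-24448016: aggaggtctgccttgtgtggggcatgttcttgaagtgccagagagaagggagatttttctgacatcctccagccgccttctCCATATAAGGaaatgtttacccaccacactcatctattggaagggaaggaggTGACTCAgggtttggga
Thbs1 (persistent), chr2:118127134-118127283: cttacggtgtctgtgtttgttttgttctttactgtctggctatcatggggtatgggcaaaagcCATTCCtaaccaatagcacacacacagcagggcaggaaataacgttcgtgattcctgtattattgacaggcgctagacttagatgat
Ccn2 (persistent), chr10:24600089-24600238: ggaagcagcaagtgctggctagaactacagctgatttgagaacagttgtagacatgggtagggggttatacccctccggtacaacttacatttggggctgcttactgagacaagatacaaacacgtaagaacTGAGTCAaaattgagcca
Ssu2 (returned), chr6:112331443-112331592: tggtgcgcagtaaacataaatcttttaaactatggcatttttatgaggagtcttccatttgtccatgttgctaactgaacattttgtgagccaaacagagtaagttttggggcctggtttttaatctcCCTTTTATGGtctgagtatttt
Plk2 (increased), chr13:110402580-110402729: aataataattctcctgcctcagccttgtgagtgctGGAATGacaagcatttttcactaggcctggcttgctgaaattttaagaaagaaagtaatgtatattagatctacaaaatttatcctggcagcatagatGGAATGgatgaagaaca

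The lost windows lay away from promoters. A transcription start site (TSS) was contained in 28 of the 1815 (1.54%), against 10.3% of the 120472 other windows with the same lowest control level, whereas 42.6% had their centre in an intron and 53.5% between genes, against 44.0% and 42.8%. The median GC content was 43.9% against 46.0%, and the median width 608 bp against 600 bp. In the 4 h libraries the mean level with CK666 was a median of 0.504 times that of the control, from 0.114 to 0.678. The limit of 0.7 cut through a continuous range: at its edge the highest CK666 level of a window near AU015836 was 0.699997 times the lowest control level, just inside, and that of a window near Tns3 was 0.700103 times, just outside, and 693 lost windows lay within 0.05 below the limit while 1082 others lay within 0.05 above it. A mirrored rule for gains found 2609 windows.

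One of the lowest ratios at 4 h was at a window near Flna, which codes for the actin crosslinker filamin A (chrX:74216477-74217103), with 1.76, 1.599 and 1.16 CPM in the controls and 0.158, 0.257 and 0.281 CPM with CK666. At 24 h it held only 12.99, 17.05 and 18.8 normalised counts in the controls and 14.98, 12.2 and 10.8 with CK666, ranges that overlapped. Its log2 fold change of -0.37 ± 0.52 (SE) had a 95% interval of -1.41 to 0.67, which held no change as well as the 0.7 of the rule. With CytoD it held 7.63, 2.43 and 3.66, below every control (log2 fold change -1.84 ± 0.61 (SE), adjusted p = 0.0386, edgeR).

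To follow each loss, the window of the 24 h table with the largest overlap was used. Of the 1815 lost windows, 139 had no overlapping window at 24 h, 5 were followed to a window with too few counts to test, and 1671 were followed to a tested window. Some shared it, so that 1648 distinct windows stand behind the 1671. The outcomes were told apart for CK666 against control at 24 h with edgeR's quasi-likelihood test. A loss was called persistent at an adjusted p under 0.05 with a log2 fold change below 0, increased at the same limit with a log2 fold change above 0, and returned where the test did not pass and the lower end of the 95% interval lay above -0.51, the log2 of the 0.7 of the rule. All others were undecided.

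Early losses mostly leaned the same way after 24 h, and few were called returned. Of the 1671 tested, 1532 (91.7%) had a log2 fold change below 0 at 24 h, with a median of -0.71, while over the other windows with the same 4 h control level 54.6% were below 0 and the median was -0.04. Persistent losses numbered 710 (42.5%), where the same call was made in 4.6% of all tested windows of the 24 h table and in 10.2% of the other windows with the same 4 h control level. At the study's stricter limits (a log2 fold change below -1, with the adjusted p under 0.01) 365 remained, against 1.06% of all tested windows and 2.12% of the other windows. Returned windows numbered 90 (5.39%), against 45.9% of the other windows. A further 867 (51.9%) were undecided, against 37.3%. Increased windows numbered 4, against 4.9% of all tested windows and 6.68% of the other windows. In 990 of the 1671 every CK666 library at 24 h was below every control, against 11.8% of all tested windows and 19.6% of the other windows. In 15 every CK666 library was above every control, against 13.5% and 14.5%. The limit of 0.7 was met again in the normalised counts at 24 h by 446, against 2.27% and 3.61%.

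**Figure D1:**
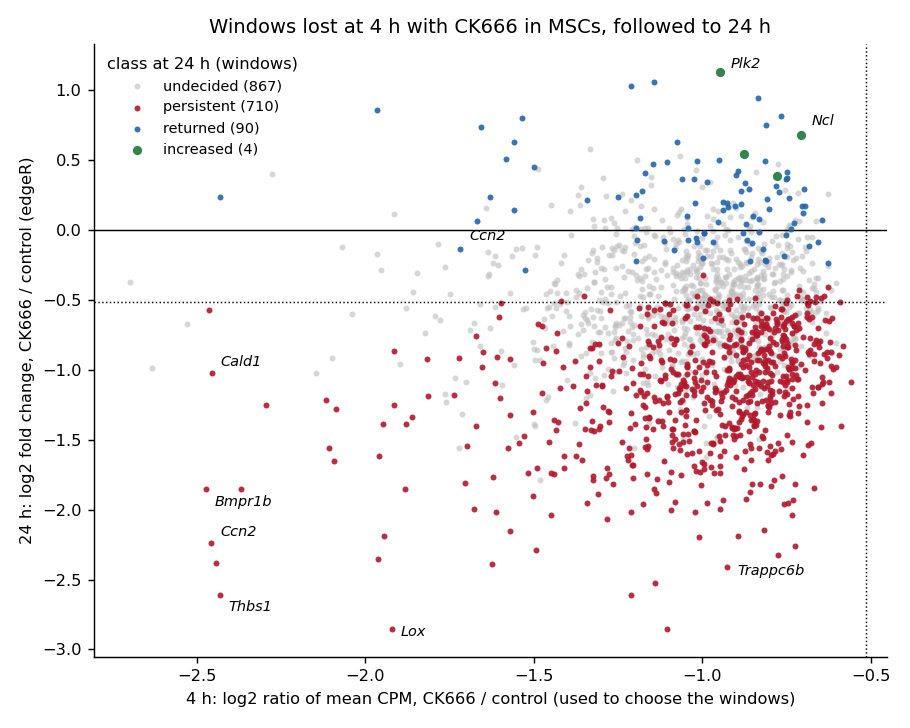
Each point is 1 of the 1671 tested windows, with the log2 ratio of mean CPM at 4 h (x axis, used for the choice) and edgeR's log2 fold change of CK666 against control at 24 h (y axis), coloured by the class at 24 h. Dotted lines mark a ratio of 0.7 and the solid line marks no change. Of the points, 1532 lie below the solid line, and the 4 increased windows lie above it.

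The share of losses that could be called moved with depth. In 4 bins of the mean normalised count of the 24 h controls, the share of persistent windows rose from 3.11% where the controls held 6.36 to 25.2 counts, through 22.5% and 59.0%, to 85.4% where they held 99.3 to 2177 counts. The undecided share fell over the same bins from 91.9% to 7.42%, whereas the returned share stayed between 4.32% and 6.46%. The median log2 fold change was below 0 in every bin, -0.49, -0.65, -0.82 and -0.91 from the lowest to the highest. In the deepest bin 357 of 418 windows were persistent, 27 returned, 3 increased and 31 undecided.

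**Figure D2:**
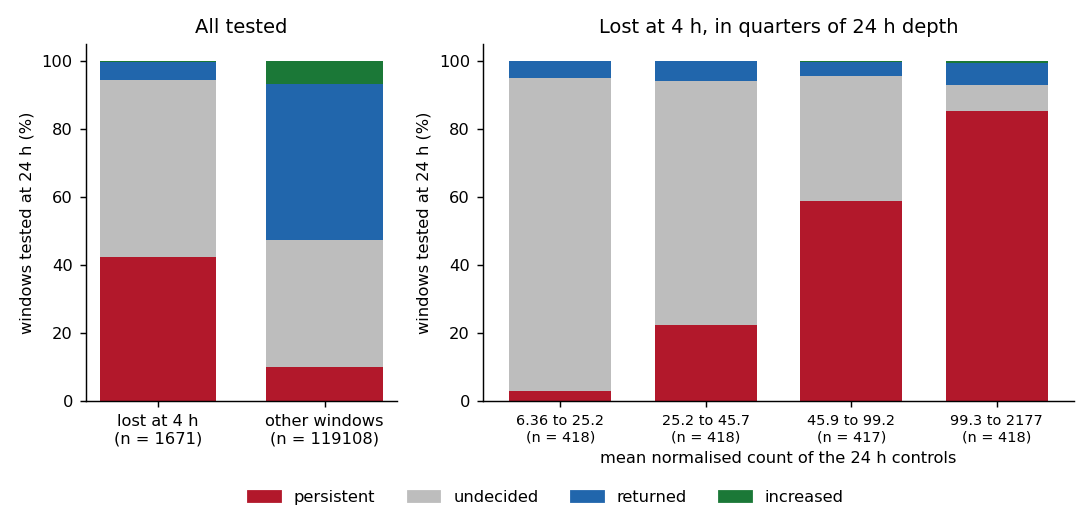
Bars give the percent of tested windows in each class at 24 h, for the windows lost at 4 h and the other windows with the same lowest control level (left) and for the lost windows in 4 bins of the mean normalised count of the 24 h controls (right). The persistent share is 42.5% on the left and climbs to 85.4% in the deepest bin, where the returned share is 6.46%.

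The persistent share did not follow the depth of the loss at 4 h step by step. The 49 tested windows with a ratio under 0.3 at 4 h included 24 persistent windows (49.0%) and had a median log2 fold change of -0.99 at 24 h. The shares were 36.5%, 36.4%, 44.7% and 57.2% in the bins from 0.3 to 0.4, 0.4 to 0.5, 0.5 to 0.6 and 0.6 to 0.7, with medians of -0.74, -0.69, -0.72 and -0.69. The 24 h controls were also deeper in the upper bins, with a median of 31.2 normalised counts under 0.3 and 102 in the bin from 0.6 to 0.7, and the part of depth in these shares was not tested.

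Lox and Thbs1, both genes of the extracellular matrix, were among the 6 deepest persistent losses with enough counts. Thbs1 codes for thrombospondin 1, a matricellular protein and a YAP target, and the wide window at its 3′ end (chr2:118125879-118130451) held 51.6, 59.2 and 48.7 CPM in the controls at 4 h and 10.7, 10.01 and 8.796 CPM with CK666. At 24 h it held 548, 343 and 515 normalised counts in the controls, 74.9, 74.8 and 79.6 with CK666 and 286, 227 and 218 with CytoD. The CK666 libraries lay far below all others, and the CytoD libraries lay between them and the controls. The log2 fold change at 24 h was -2.61 ± 0.14 (SE) for CK666 (adjusted p = 3.71e-27, edgeR) and -0.94 ± 0.12 (SE) for CytoD (adjusted p = 6.95e-09, edgeR).

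Lox codes for lysyl oxidase, which crosslinks collagen, and its window downstream of the gene on chromosome 18 held 28.4, 33.3 and 24.8 CPM in the controls and 7.56, 8.35 and 6.92 CPM with CK666 at 4 h. At 24 h the followed window held 597, 445 and 536 normalised counts in the controls, 82.4, 64.4 and 70.8 with CK666 and 368, 312 and 326 with CytoD. Its log2 fold change was the lowest among the 1671 tested, -2.85 ± 0.13 (SE) for CK666 (adjusted p = 6.00e-32, edgeR), and the groups did not overlap. A smaller lost window beside it was followed to the same window and is no separate evidence. Of the 4 lost windows within 50 kb of the Lox start, 3 were persistent and 1 was undecided.

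The other large late losses were at Pecr, Syde2, Trappc6b and Mdga2, where the nearest gene gives only the position. The window near Pecr, which codes for a peroxisomal enzyme of fatty acid elongation (chr1:72255902-72259239), held 771, 904 and 849 normalised counts in the 24 h controls, 129, 166 and 118 with CK666 and 247, 259 and 248 with CytoD, and its log2 fold change was -2.61 ± 0.11 (SE) with CK666 (adjusted p = 4.46e-34, edgeR). The window near Trappc6b, a subunit of a vesicle tethering complex (chr12:59039792-59042267), had the highest counts of these, 1481, 1647 and 1636 in the controls and 307, 278 and 311 with CK666, a log2 fold change of -2.41 ± 0.08 (SE) (adjusted p = 2.71e-39, edgeR). At 4 h the same window stood at 141, 142 and 139 CPM in the controls and 70.4, 74.8 and 76.7 CPM with CK666. In each of these 4 windows the 3 CK666 libraries at 24 h lay below the 3 CytoD libraries, which lay below the controls. The windows near Syde2 and Mdga2 had log2 fold changes of -2.53 ± 0.20 (SE) and -2.33 ± 0.20 (SE), without overlap between CK666 and control.

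At Ccn2, neighbouring windows took different courses. Ccn2 codes for connective tissue growth factor, a standard target of YAP and TEAD, and 5 of the 17 windows near it with enough control signal were lost at 4 h. The window beyond its 3′ end (chr10:24599249-24600538) held 24.3, 24.1 and 19.8 CPM in the controls at 4 h and 3.82, 3.97 and 4.62 CPM with CK666, and at 24 h 114, 90.3 and 87.6 normalised counts against 8.43, 23.5 and 29.5, a persistent loss with a log2 fold change of -2.24 ± 0.28 (SE) (adjusted p = 9.19e-10, edgeR). CytoD left 21.6, 35.2 and 32.9 there, also below every control. The shorter window just past the 3′ end (chr10:24598624-24599193) had the third lowest ratio of all lost windows, 0.161, but held only 29.9, 22.2 and 43.8 normalised counts in the controls and 20.6, 15.7 and 11.8 with CK666 at 24 h, and its log2 fold change of -0.99 ± 0.38 (SE) did not pass (adjusted p = 0.0946, edgeR).

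The window over the body of Ccn2 (chr10:24596043-24598329) went at 4 h from 24.1, 29.7 and 24.6 CPM to 8.66, 7.89 and 7.27 CPM, and at 24 h it held 714, 667 and 735 normalised counts in the controls and 664, 619 and 646 with CK666. All CK666 libraries were just below all controls, yet its log2 fold change was -0.13 ± 0.08 (SE) with an interval of -0.30 to 0.03, and it was called returned. The window that stands for it at 24 h spans chr10:24595241-24597672, so that it also takes in the start of the gene and covers 71.3% of the early window. CytoD left 448, 470.0 and 468 in the same window, below all controls and all CK666 libraries, a log2 fold change of -0.61 ± 0.09 (SE) (adjusted p = 6.66e-08, edgeR). The lost window at the start of Ccn2 was followed to the same 24 h window. Of the 5 lost windows near Ccn2, 1 was persistent, 3 were returned and 1 was undecided.

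**Figure D3:**
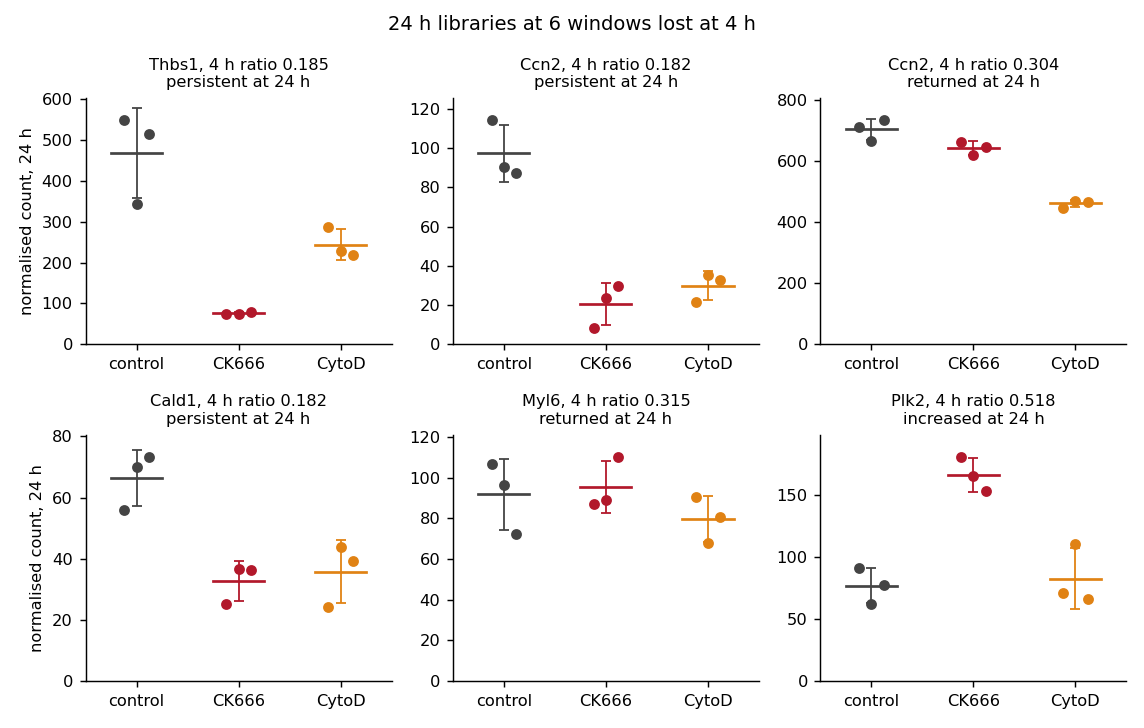
Points are the 3 libraries of each group at 24 h in TMM-normalised counts (y axis, from 0), with the mean as a bar and the SD as an error bar, for 6 windows that were lost at 4 h. CK666 stays far below control at Thbs1, at Cald1 and beyond the 3′ end of Ccn2, overlaps control at Myl6, and lies above it at Plk2.

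Cald1, which codes for the actin and myosin binding protein caldesmon, had 11 lost windows among 38 within 50 kb of a start, more than any other gene but Zfp184, which had as many. Of these, 6 were persistent, 1 was returned, 3 were undecided and 1 had no test. Its deepest was an intronic window (chr6:34718810-34719506) with 7.87, 7.496 and 8.003 CPM in the controls at 4 h and 1.33, 1.72 and 1.22 CPM with CK666. At 24 h the same place held 55.8, 69.9 and 73.3 normalised counts in the controls, 25.3, 36.5 and 36.4 with CK666 and 24.2, 43.7 and 39.3 with CytoD, so that every treated library was below every control. The log2 fold change with CK666 was -1.03 ± 0.26 (SE) (adjusted p = 0.00378, edgeR). The returned window among the 11 (chr6:34722509-34723101), named after its values were seen, had a mean of 358 normalised counts in the 24 h controls and a log2 fold change of -0.22 (adjusted p = 0.235, edgeR). A further intronic window of the gene, over 50 kb from a start and so not among the 11 (chr6:34656552-34658192), was also called returned. The window that stands for it at 24 h covers only a share of 0.347 of the early window. This 24 h window held only 9.09, 7.67 and 14.3 normalised counts in the controls and 7.49, 17.4 and 27.5 with CK666, and the interval of its log2 fold change ran from -0.32 to 1.80.

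Acta2 codes for smooth muscle actin, and its deepest loss had its centre just past the 3′ end, where the annotation gives an untranslated region of Stambpl1 (chr19:34239122-34241054). The levels at 4 h were 9.66, 9.39 and 8.04 CPM in the controls and 1.83, 1.97 and 1.72 CPM with CK666. The window that stands for it at 24 h spans chr19:34240179-34241060 and covers only a share of 0.453 of the early window. The rest of the early loss was not followed. This 24 h window held 50.6, 21.3 and 35.7 normalised counts in the controls and 12.2, 20.01 and 11.8 with CK666, the lowest control standing near the highest treated library. Its log2 fold change was -1.25 ± 0.38 (SE) (adjusted p = 0.0229, edgeR), a call lost without CK666 replicate 1 (-1.15), CK666 replicate 3 (-1.14), control replicate 1 (-0.96) or control replicate 3 (-1.26). Lpp codes for a LIM protein of focal adhesions, and its lost promoter window (chr16:24447687-24448243), printed above, held 122, 129 and 136 normalised counts in the controls, 73.97, 91.4 and 95.3 with CK666 and 96.7, 74.1 and 90.5 with CytoD at 24 h. The CK666 libraries were all below the controls, and the log2 fold change was -0.57 ± 0.17 (SE) (adjusted p = 0.0185, edgeR), a call lost without CK666 replicate 1 (-0.49) or control replicate 3 (-0.55). Of the 7 lost windows near Lpp, 4 were persistent and 3 undecided.

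Of the returned windows with the lowest ratios, a pair lay near Ssu2 and Lmcd1. Lmcd1 codes for a LIM protein of muscle, and Ssu2 is its neighbour. The lost windows chr6:112331123-112332601 and chr6:112330575-112331097 went at 4 h from 5.94, 4.497 and 4.24 CPM to 0.854, 1.09 and 0.7798 CPM and from 2.43, 2.33 and 1.95 CPM to 0.759, 0.943 and 0.468 CPM. Both were followed to a single window that held 57.1, 46.03 and 30.4 normalised counts in the controls, 47.8, 72.2 and 33.4 with CK666 and 71.3, 55.9 and 55.8 with CytoD, and these ranges overlapped, with a log2 fold change of 0.23 ± 0.26 (SE) and an interval of -0.28 to 0.75. In the megabase that holds them, chr6:112000001-113000000, 11 windows were lost at 4 h, of which none was persistent, 5 were returned and 6 undecided. The median log2 fold change at 24 h was 0.23 with CK666 and 0.47 with CytoD. Both medians are the values of the single window that the pair shares, and the pair gives 2 of the 5 returned from 1 measurement. The 5 lost windows within 50 kb of the Lmcd1 start were all undecided, with a median log2 fold change of -0.27 with CK666.

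A window near Myl6, which codes for a myosin light chain, lies in an intron of its neighbour Smarcc2 (chr10:128487953-128489277). It fell from 2.36, 2.03 and 2.39 CPM to 0.569, 0.943 and 0.624 CPM at 4 h, and at 24 h the controls held 106, 96.3 and 72.4 normalised counts and the CK666 libraries 87.1, 88.7 and 110.1. The groups overlapped, and the log2 fold change was 0.06 ± 0.19 (SE) with an interval of -0.30 to 0.43. Near Itga5, which codes for the α5 integrin subunit, the deepest lost window (chr15:103355319-103357742) was followed to chr15:103355899-103356725. That 24 h window covers only a share of 0.341 of the early window, and the rest of the loss was not followed. It held 24.7, 12.8 and 11.6 normalised counts in the controls and 25.3, 27.8 and 12.8 with CK666 at 24 h, again with overlap. The intronic window of Igsf23 (chr7:19944929-19945654) had 10.4, 0 and 15.2 normalised counts in the controls, so that its class rests on few counts. Across the 90 returned windows the median control level at 24 h was 47.4 normalised counts, against 99.8 over the 710 persistent windows and 26.9 over the undecided.

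The 24 h window that stood for a returned loss was often larger than the loss itself. The early window covered a median of 70.0% of the later window among the returned, against 91.6% among the persistent. Where each window had to cover at least 50% of the other, a limit set after seeing the data, 1371 of the 1671 tested windows remained, of which 574 were persistent, 54 returned, 3 increased and 740 undecided.

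The 4 windows that rose at 24 h after an early loss lay near Plk2, Ncl, Znfx1 and Gpc5. Plk2 codes for a polo-like kinase, and the window beyond its 3′ end (chr13:110400970-110404672) went at 4 h from 10.7, 11.8 and 12.2 CPM to 6.76, 6.12 and 5.12 CPM. The window that stands for it at 24 h spans chr13:110400318-110402625 and covers only a share of 0.447 of the early window. The rest of the early loss was not followed, and the 50% limit above leaves Plk2 out of the increased windows. The 24 h window held 90.9, 62.2 and 77.8 normalised counts in the controls, 181, 165 and 153 with CK666 and 71.3, 111 and 65.8 with CytoD. Every CK666 library was above every other library, and the log2 fold change was 1.13 ± 0.18 (SE) with CK666 (adjusted p = 6.14e-07, edgeR) and 0.11 ± 0.19 (SE) with CytoD (adjusted p = 0.7905, edgeR).

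Ncl codes for nucleolin, and its window (chr1:86341043-86346467) held 168, 151 and 147 normalised counts in the controls, 237, 238 and 265 with CK666 and 108, 75.3 and 77.7 with CytoD at 24 h. The order of the groups was without overlap, CK666 above control and control above CytoD, with log2 fold changes of 0.68 ± 0.14 (SE) and -0.84 ± 0.16 (SE) (adjusted p = 1.30e-04 and 3.73e-05, edgeR). Znfx1, which codes for a zinc finger helicase, and Gpc5, which codes for a glypican, showed the same order. Their log2 fold changes were 0.54 ± 0.17 (SE) and 0.39 ± 0.13 (SE) with CK666 (adjusted p = 0.0242 and 0.0363, edgeR), and -0.74 ± 0.19 (SE) and -1.03 ± 0.14 (SE) with CytoD (adjusted p = 0.00422 and 6.16e-08, edgeR). The CK666 call at Znfx1 was lost without CK666 replicate 2 (0.48), CK666 replicate 3 (0.45) or control replicate 3 (0.40), and that at Gpc5 without any 1 of the 6 libraries (0.29 to 0.44).

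The early-lost windows were also measured with CytoD at 24 h. Of the 1671, 666 were decreased with CytoD at an adjusted p under 0.05 and 3 were increased, where 6.2% and 3.68% of all tested windows and 14.8% and 3.61% of the other windows with the same 4 h control level were called. The median log2 fold change was -0.69, against -0.15 over those other windows. In all, 343 passed the study's limits as decreased, against 1.4% of all tested windows and 3.12% of the other windows. The comparisons with CK666 and CytoD share their 3 control libraries, so their values only stand side by side. By class, 512 of the 710 persistent windows, 21 of the 90 returned, 3 of the 4 increased and 130 of the 867 undecided were decreased with CytoD.

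In NIH 3T3 cells treated with CK666 for 4 h the same windows were tested apart. Of the 1705 tested there, 417 were decreased with CK666 and 58 increased, while 7.26% and 5.89% of all tested windows and 13.6% and 5.43% of the other windows with the same MSC control level were called. The median log2 fold change was -0.24, against -0.08 over those other windows. The lowest untreated NIH 3T3 level reached 1 CPM in 1184 of the 1815 (65.2%), against 70.6% of the other windows. The test was run within each cell type, and the difference between the cell types was not tested.

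**Figure D4:**
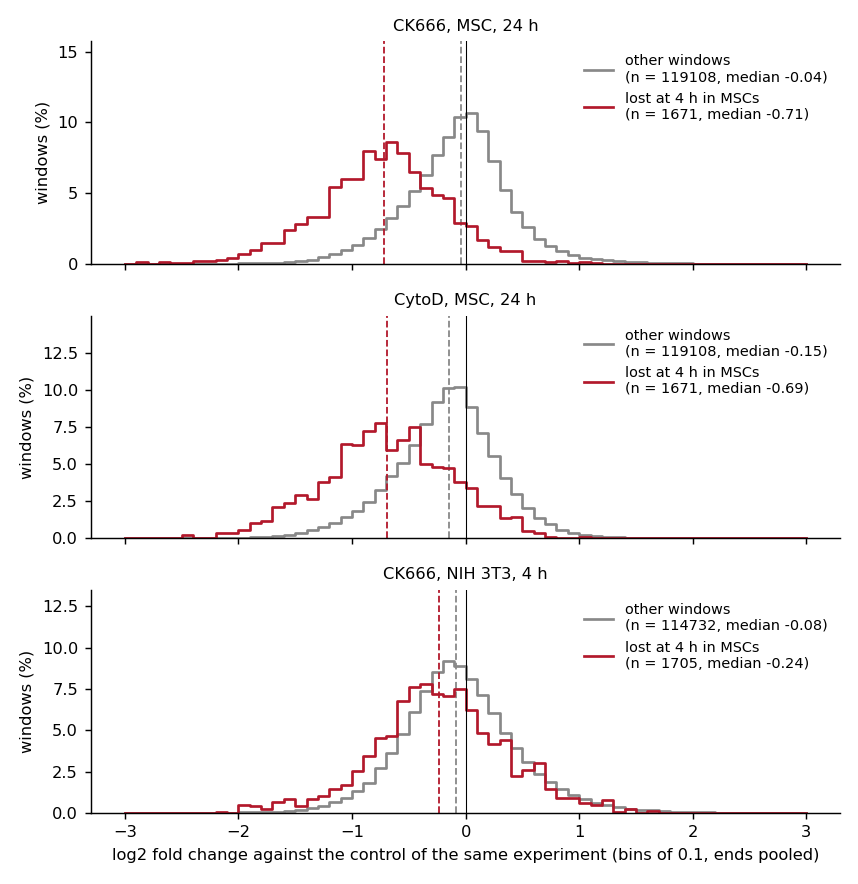
Lines give the percent of windows in bins of log2 fold change against the control of the same experiment (x axis, ends pooled), for the windows lost at 4 h in MSCs and for the other windows with the same MSC control level, and dashed lines mark the medians. The lost windows have medians of -0.71 with CK666 at 24 h, -0.69 with CytoD at 24 h and -0.24 with CK666 in NIH 3T3 cells at 4 h, against -0.04, -0.15 and -0.08.

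The Thbs1 window rose in NIH 3T3. It went from 8.25, 7.93 and 7.76 CPM in untreated cells to 23.9, 29.6 and 25.3 CPM with CK666, without overlap and with a log2 fold change of 1.62 ± 0.14 (SE) (adjusted p = 1.25e-14, edgeR). The window beyond Ccn2 fell in NIH 3T3, from 10.4, 11.5 and 10.8 CPM to 3.04, 4.62 and 4.06 CPM (log2 fold change -1.55 ± 0.16 (SE), adjusted p = 2.98e-11, edgeR).

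The 28 listed YAP and TEAD target genes had 452 windows within 50 kb of a start with enough control signal, of which 23 (5.09%) were lost at 4 h, at 10 of the genes, against 1.30% over all genes. Of the 23, 10 were persistent, 4 returned, none increased and 9 undecided, with a median log2 fold change of -0.66 at 24 h, against -0.67 over the lost windows near any gene. Near Ccn1, the paralogue of Ccn2, 4 windows were lost, of which 2 were persistent and 2 undecided. The promoter window of Ankrd1, a muscle ankyrin repeat protein (chr19:36119819-36120381), went at 4 h from 1.96, 2.13 and 2.19 CPM to 0.506, 0.972 and 0.967 CPM, and held 29.9, 17.9 and 20.6 normalised counts in the controls and 10.3, 15.7 and 9.83 with CK666 at 24 h. These groups did not overlap, yet the log2 fold change of -0.90 ± 0.45 (SE) did not pass (adjusted p = 0.244, edgeR). In NIH 3T3 the same promoter was more open, with 17.4, 17.4 and 16.5 CPM untreated and 18.97, 21.2 and 15.6 CPM with CK666.

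The 28 actin, MRTF and SRF target genes found in the table had 336 such windows, of which 28 (8.33%) were lost at 4 h, at 10 of the genes: 12 were persistent, 4 returned, 11 undecided and 1 had no test at 24 h. Their median log2 fold change at 24 h was -0.63 with CK666 and -0.64 with CytoD. Cald1 alone gave 11 of the 28 windows and 6 of the 12 persistent. Besides Cald1 and Acta2 the 28 included 4 windows near Fhl2, a LIM coactivator, of which 2 were persistent, 2 with Actb as the nearest start and 2 near Flna. The 2 persistent windows behind Actb, described below, had Fbxl18 as the nearest start and were not counted here. The other 307 windows of the list tested at 24 h included 41 decreased (13.4%) and 12 increased, where 8.69% of the other windows near any gene were decreased.

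Of the 26 focal adhesion and integrin genes, 9 had a lost window, 19 in all (5.31% of 358), of which 10 were persistent and 2 returned, with a median log2 fold change of -0.57 at 24 h. Lpp alone gave 7 of the 19 windows and 4 of the 10 persistent. Of the 22 collagen and matrix genes found, 8 had a lost window, 15 in all (4.67% of 321), of which 8 were persistent and 2 returned, with a median of -0.79. Lox and Thbs1 gave 4 each of the 15 windows, and 3 and 2 of the 8 persistent. The 25 genes of TGF-β and BMP signalling had 6 lost windows among 262 (2.29%), and none of these was persistent or returned. The deepest of them, near Inhba, which codes for an activin subunit (chr13:16032173-16034184), held 15.6, 25.6 and 35.7 normalised counts in the 24 h controls and 24.3, 25.2 and 19.7 with CK666, with wide overlap. No window was lost at 4 h near the 17 AP-1 and immediate early genes (of 155 windows), the 13 osteoblast genes found (of 107) or the 17 adipocyte genes (of 173). The share over all genes was 1.30%. Some genes stand in more than 1 list, so the lists are not separate counts. Thbs1 is in the YAP and TEAD list and the matrix list, and Tgfb2 in the YAP and TEAD list and the TGF-β list. Itga5 and Itgb1 are in the SRF list and the focal adhesion list.

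Joined where they lay up to 50 kb apart, the 1815 windows formed 1368 clusters, of which 1151 were single windows and 73 held 3 or more, 376 windows in all. The next counts take only lost windows tested at 24 h, within 50 kb of the nearest start. At 29 genes with 2 or more such windows all were persistent, and at 1 gene all were returned or increased. A further 9 genes held both a persistent and a returned or increased window. Genes with undecided windows can fall in none of these counts. Lost windows that shared a 24 h window were counted separately, so some of the agreement within a gene can rest on a single measurement. Behind the 710 persistent windows stood 691 distinct 24 h windows. Fstl1, which codes for the secreted protein follistatin-like 1, had 9 lost windows, 6 persistent and 3 undecided, with a median log2 fold change of -1.05 at 24 h and -0.07 in NIH 3T3. Near AI597479, next to the 3′ end of Fhl2, 6 windows were lost, 5 of them persistent. The deepest of these (chr1:43118174-43119053) went at 4 h from 3.07, 3.46 and 3.18 CPM to 0.948, 0.772 and 0.7798 CPM and held 152, 128 and 144 normalised counts in the controls and 43.1, 38.3 and 57.00 with CK666 at 24 h, without overlap, a log2 fold change of -1.61 ± 0.20 (SE) (adjusted p = 5.62e-10, edgeR). Another of the 5 persistent windows (chr1:43116726-43118129) was followed to the same 24 h window and is no separate evidence.

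The megabase with the most lost windows was chr13:21000001-22000000, around Zfp184 and the histone gene Hist1h2br, where 20 of the 77 windows with enough control signal were lost at 4 h, 25.97% of them. Of these, 16 were persistent and 4 undecided at 24 h, none was returned, and the log2 fold changes ran from -2.39 to -0.47 with CK666. With CytoD 16 were decreased, and in NIH 3T3 at 4 h 15 of the 20 were decreased, with a median log2 fold change of -1.18. The deepest early loss there (chr13:21924493-21925194) went another way with CytoD: it went at 4 h from 2.600, 2.67 and 2.12 CPM to 0.506, 0.4002 and 0.374 CPM, and at 24 h the window that overlaps 22.9% of it held 6.49, 14.5 and 12.5 normalised counts in the controls, 7.49, 3.48 and 10.8 with CK666 and 25.4, 29.1 and 43.9 with CytoD. The CytoD libraries were all above the others, with a log2 fold change of 1.52 ± 0.44 (SE) (adjusted p = 0.01303, edgeR). The megabase around Bmpr1b and Pdlim5, chr3:142000001-143000000, held 17 lost windows of 108, of which 6 were persistent and 7 fell in NIH 3T3 too. Its deepest (chr3:142232847-142234256) held 3.34, 3.23 and 3.32 CPM in the controls and 0.379, 0.715 and 0.686 CPM with CK666 at 4 h, and 92.2, 60.5 and 84.9 against 19.7, 21.8 and 23.6 normalised counts at 24 h, a log2 fold change of -1.85 ± 0.27 (SE) (adjusted p = 1.93e-07, edgeR).

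The place of the early losses behind gene ends was looked at after the named windows had been seen. The centre of 173 of the 1815 lost windows (9.53%) lay up to 5 kb past the 3′ end of a protein-coding gene without a start in the window, against 6.39% of the other windows with the same control level and 8.20% of the mirrored gains. Among the 60 windows with a ratio under 0.3 at 4 h the count was 22 (36.7%), and it was 14.6%, 10.03%, 6.56% and 5.39% in the bins up to 0.7. At 24 h 165 of the 173 were tested, of which 71 were persistent, 20 returned, 2 increased and 72 undecided. The returned share was 12.1%, against 5.39% over all tested lost windows. These counts are a description, and the windows behind a single gene are not independent.

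The window behind Rhob, which codes for a small GTPase of stress fibres (chr12:8495786-8497816), was chosen for mention after its values were seen, as were Vim, Anxa1 and Actb. It went at 4 h from 18.9, 18.9 and 17.6 CPM to 3.16, 4.03 and 2.84 CPM, and at 24 h it held 270.1, 216 and 273 normalised counts in the controls, 148, 155 and 207 with CK666 and 150.2, 219.8 and 185 with CytoD. All CK666 libraries were below all controls, and the log2 fold change at 24 h was -0.57 ± 0.13 (SE) (adjusted p = 0.00135, edgeR). Behind Vim, which codes for vimentin (chr2:13583569-13585679), the level went at 4 h from 64.3, 61.8 and 61.97 CPM to 39.5, 36.7 and 35.4 CPM, and at 24 h the followed window held 842, 753 and 782 normalised counts in the controls and 342, 337 and 383 with CK666, a log2 fold change of -1.16 ± 0.09 (SE) (adjusted p = 6.70e-18, edgeR). Behind Anxa1, which codes for annexin A1 (chr19:20371302-20373382), 123, 90.3 and 100.1 normalised counts in the controls stood against 39.3, 46.98 and 41.3 with CK666 at 24 h, a log2 fold change of -1.28 ± 0.21 (SE) (adjusted p = 3.80e-06, edgeR). Behind Actb, which codes for β-actin, 4 windows were lost at 4 h, of which 2 were persistent and followed to a single window, with a log2 fold change of -0.52 ± 0.16 (SE) (adjusted p = 0.0217, edgeR) and a lowest control that lay within the range of the CK666 libraries, and 2 were returned and followed to another, with -0.07 ± 0.13 (SE).

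**Figure D5:**
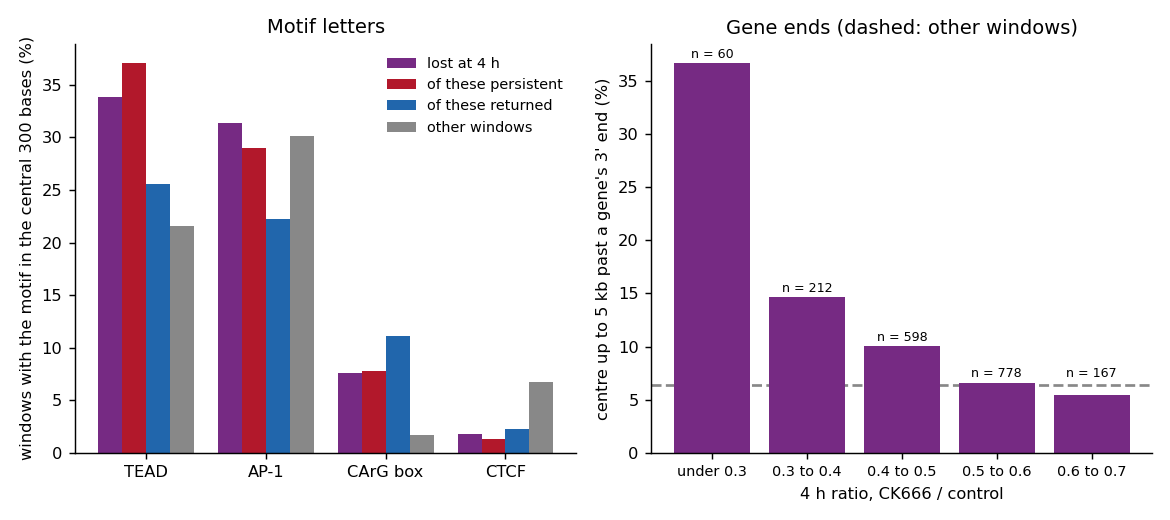
Left, bars give the percent of windows whose central 300 bases hold the letters of each motif, for the windows lost at 4 h, the persistent and the returned among them, and the other windows with the same control level. Right, bars give the percent of lost windows whose centre lies up to 5 kb past a gene's 3′ end in bins of the 4 h ratio, with the other windows as a dashed line at 6.39%, and the share is 36.7% under a ratio of 0.3.

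Motif letters were counted in all windows. GGAATG stood in the central 300 bases of 33.8% of the lost windows, against 21.6% of the other windows with the same control level, 21.3% of all windows and 17.3% of the mirrored gains. A CArG box stood in 7.60% against 1.65%, 1.63% and 0.997%. TGANTCA stood in 31.4% against 30.1%, 28.7% and 24.6%, and the core letters of the CTCF motif in 1.76% against 6.72%, 5.20% and 2.41%. By class, GGAATG stood in 37.0% of the persistent and 25.6% of the returned windows, and a CArG box in 7.75% and 11.1%, where the latter is 10 of 90 windows. A match says only that the letters are present.

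Within the lost windows, those with GGAATG had a median log2 fold change of -0.74 with CK666 at 24 h and -0.76 with CytoD, against -0.69 and -0.64 without it, and 46.0% against 40.7% were persistent. Those with a CArG box had medians of -0.70 and -0.76, against -0.71 and -0.69 without it, and 43.0% against 42.5% were persistent. In NIH 3T3 cells at 4 h the windows had a median of -0.52 with a CArG box and -0.21 without, while for GGAATG the medians were -0.22 and -0.24. The median control level at 24 h was 54.3 normalised counts with a CArG box and 45.3 without, and its part in these shares was not tested.

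Promoters were few among the early losses, and of the 28 that contained a TSS 11 were persistent, 3 returned and 12 undecided at 24 h. Besides Ankrd1 and Lpp, the lowest ratios were at Opn1sw, which codes for a cone opsin, and at S100a16, which codes for a calcium binding protein, both undecided at 24 h with log2 fold changes of -0.17 ± 0.21 (SE) and -0.13 ± 0.34 (SE), and at 1700009N14Rik, which had no window at 24 h. The window of S100a16 (chr3:90538869-90539454) held 27.3, 25.6 and 21.4 normalised counts in the 24 h controls and 21.5, 24.4 and 21.6 with CK666, ranges that overlapped.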

How the data were processed

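ATAC-seq libraries of MSCs and NIH 3T3 cells were made from 50000 cells each with the Omni-ATAC protocol, and the authors aligned the reads with bowtie2 in the PEPATAC pipeline, called peaks with MACS2 and deposited whole-number counts per consensus window, with mm10 as the build in the submitters' processing notes. Windows are called separately for each table, so a 4 h window and its 24 h window can differ in width. The 9 libraries treated with siRNA were not used here, since their counts did not follow the window names (rank correlations with the other libraries from -0.0030 to 0.0018, against at least 0.7522 among those).

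The windows and gene lists were chosen with earlier results of these data known. The deposited counts were tested with edgeR 4.0.16 in R 4.3.3 (TMM, filterByExpr, quasi-likelihood test, Benjamini-Hochberg adjustment over all tested windows), with the 9 libraries at 24 h in 1 fit and the 6 NIH 3T3 libraries in another. The study's DESeq2 (1.42.0) and its limits (a log2 fold change past 1 in size, at 0.01 for the adjusted p) were alternatives. On simulated data the test was checked for the recovery of known fold changes. Normalised counts are TMM-normalised, intervals are 95% intervals of the fit, and positions count from 1. Genes and their ends came from the GRCm38 annotation, the nearest start counting up to 50 kb. Total counts set the precision, which is low for windows of few counts.

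Windows were named by rule: the 5 lowest 4 h ratios, the 6 deepest persistent losses at the study's limits with at least 50 normalised counts and no overlap between groups, the 6 lowest-ratio returned windows with at least 2 CPM, the 4 increased, up to 3 per gene list, the 5 lowest-ratio TSS windows and the 6 genes with the most lost windows, with 1 window per nearest gene except for the gene lists. Some windows that the rule names are not reported here. Other normalisations, filters, tests, limits and left-out libraries were tried as alternatives.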

Additional observations from a re-analysis of the deposited data

Results flagged for a closer look

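4 windows that were lost at 4 h with CK666 were increased at 24 h, with every CK666 library below every control at 4 h and above every control at 24 h. The log2 fold changes at 24 h were 1.13 near Plk2, 0.68 near Ncl, 0.54 near Znfx1 and 0.39 near Gpc5. Near Plk2 the followed 24 h window covers only a share of 0.447 of the early window. That share is 0.620 near Ncl, 0.679 near Znfx1 and 1 near Gpc5. The difference between 4 h and 24 h was not tested, and the 4 h values were used to choose the windows. With CytoD at 24 h the log2 fold changes of these windows were 0.11, -0.84, -0.74 and -1.03, against the same control libraries.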

How the results depend on the processing

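With a ratio limit of 0.6 the rule chose 658 windows in place of 1815, of which 282 were persistent, 26 returned and 0 increased, and a lowest control of 2 CPM left 1188. Leaving out any of the 6 MSC libraries at 4 h raised the number chosen to between 2739 and 2911, as fewer libraries have to meet the limits. Leaving out a library at 24 h gave 586 to 657 persistent windows, 311 to 358 at the study's limits, 72 to 82 returned, 2 to 4 increased, 548 to 636 decreased with CytoD and 0 to 3 increased with CytoD, and in NIH 3T3 294 to 449 decreased and 31 to 59 increased. The count of increased windows was 2 without CK666 replicate 2, CK666 replicate 3 or control replicate 3, and the CytoD count was 0 without control replicate 1 and 1 without CytoD replicate 3. In NIH 3T3 the increased count was 31 without CK666 replicate 3, control replicate 2 or control replicate 3, and 32 without control replicate 1. DESeq2 called 2 windows increased at 24 h and 24 increased in NIH 3T3, and total counts gave 89 there. A reciprocal overlap of 50%, chosen after seeing the data, left 54 returned. The cause of these differences was not tested.

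Of the 710 persistent windows, 710 kept the call with DESeq2 size factors, 652 with the DESeq2 test and 579 to 635 with a library left out. The replicate numbers did not pair the samples (correlations of deviations from -0.0577 to 0.0503), and with the replicate number as a block 698 windows were persistent, 352 at the study's limits, 85 returned and 4 increased, 649 decreased and 3 increased with CytoD, and 371 decreased and 51 increased in NIH 3T3. Among named windows no call changed direction. Calls were lost under at least 1 alternative at Znfx1 (0.40 to 0.64 over all alternatives), Gpc5 (0.29 to 0.44), Acta2 (-1.56 to -0.96), the Lpp promoter (-0.67 to -0.49) and a further persistent window near Lpp at chr16:24382097-24382681 (-1.34 to -0.84), the last with the replicate block (-1.12), with DESeq2 and without CK666 replicate 1, 2 or 3 or control replicate 1, and the intronic Fsip1 window near Thbs1 gained a call without CK666 replicate 3 (-1.22). The 24 h controls of the undecided windows held a median of 26.9 normalised counts, and the part of depth in that class was not tested.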
